A study of Mus musculus with 15 samples.

Results

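The RAS to ERK cascade was followed through 7 genes: the RAS GTPases Hras and Nras, the RAF kinases Araf and Braf, the MEK kinases Map2k1 (MEK1) and Map2k2 (MEK2), and the ERK kinase Mapk3 (ERK1). They were taken by gene symbol from the 34372 genes of the deposited table, and all 7 were found. Hras is listed there under its older symbol Hras1 and was matched through RefSeq synonyms. The other RAS, RAF and ERK genes are not analysed here. Levels are in TPM, a transcript abundance corrected for transcript length and library total, so that different genes can be compared, from sequencing of polyadenylated RNA in 15 mouse libraries.

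The study set embryonic germ cells (EGC), pluripotent lines grown out from primordial germ cells, beside genetically matched embryonic stem cells (ESC). The table header gives 6 labels. The ESC were XX (libraries ESC 1 to 3) or XY (ESC 4 to 6). The EGC were XY from E12.5 (libraries EGC 1 to 3), or from E11.5 and then XY (EGC 4 to 6), XX (EGC 7 and 9) or XO (EGC 8). E11.5 and E12.5 are days of embryonic development. All cells were at passage 6, and the labels name no allele, transgene or treatment. Outgrowths were first kept in 2i-LIF medium, which holds an inhibitor of MEK, and then in serum with LIF on mouse embryonic fibroblast feeders. Cells were sorted for the surface antigen SSEA1 before RNA was taken. Neither the mouse strain nor whether libraries under 1 label are separate lines or clones is given in the sources used here, so the errors below measure only the spread between such libraries.

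In this cascade a receptor loads RAS with GTP, RAS recruits RAF to the membrane, RAF phosphorylates MEK, and MEK phosphorylates ERK, which then acts on transcription factors and on other kinases. In mouse pluripotent cells FGF4 drives the cascade, and its ERK activity pushes cells out of the naive state, which is why naive lines are often kept with a MEK inhibitor. Dual-specificity phosphatases such as DUSP9 switch ERK off, and Dusp9 lies on the X chromosome. Transcript levels do not show how far a kinase is phosphorylated.

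Without read counts in the deposited table, sequencing depth is unknown, and between 12498 and 13041 genes reached 1 TPM per library. The 5 pluripotency markers checked (Pou5f1, Nanog, Zfp42, Esrrb and Tdgf1) summed to 2713 TPM or more in every library. They summed to 3737 to 4335 TPM in XX ESC, 3896 to 4147 TPM in XX EGC and 4444 TPM in the XO library. Their sums in XY libraries were 3080 to 3184 TPM in ESC, 2713 to 3101 TPM in E12.5 EGC and 2969 to 3133 TPM in E11.5 EGC. Zfp42, Nanog and Tdgf1 were higher in XX than XY in both ESC and E11.5 EGC (limma, adjusted p under 0.05). The other 2 did not pass. The part of this in the differences between XX and XY below was not tested. The 11 fibroblast markers, none of them at 0 in every library, summed to 13.0 to 17.1 TPM in ESC and 19.004 to 70.9 TPM in EGC, with the highest sum in EGC 4. In bulk RNA, fewer cells with a transcript and less transcript per cell cannot be told apart.

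Hras, a RAS GTPase on chromosome 7 (141189105 to 141194005, GRCm38), was highest in E11.5 XX EGC and lowest in E11.5 XY EGC. Its level was 50.3 and 51.4 TPM in the 2 E11.5 XX EGC libraries. It was 46.0, 43.7 and 46.6 TPM in XX ESC, 45.9, 42.6 and 41.6 TPM in E12.5 XY EGC and 41.2, 38.2 and 42.6 TPM in XY ESC. These middle labels overlapped in their order, whereas E11.5 XY EGC (31.4, 29.5 and 31.9 TPM) lay below every other library, the XO library (34.6 TPM) included. Nras, the RAS GTPase on chromosome 3 (103058285 to 103067914), separated the libraries by karyotype instead. It had 43.4 and 43.8 TPM in E11.5 XX EGC and 48.9, 48.7 and 48.8 TPM in XX ESC. The XY libraries held 64.8, 64.4 and 56.7 TPM in ESC, 63.4, 61.5 and 64.8 TPM in E12.5 EGC and 64.0, 65.0 and 65.8 TPM in E11.5 EGC. No XX library reached the lowest XY library, and the XO library stood between them at 55.9 TPM.

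Araf, the X-linked RAF kinase (chromosome X, 20797814 to 20860519), was highest in XX cells of both origins. It had 99.9, 101.9 and 85.4 TPM in XX ESC and 90.4 and 94.7 TPM in E11.5 XX EGC. The XY libraries had 65.1, 64.6 and 62.2 TPM in ESC, 63.8, 64.7 and 70.3 TPM in E12.5 EGC and 74.5, 81.5 and 71.5 TPM in E11.5 EGC. The XO library was the lowest of the 15 at 58.5 TPM, and no XX library overlapped an XY library. Braf, the RAF kinase with the strongest basal activity (chromosome 6, 39603237 to 39725463), was the least abundant of the 7 genes, with a mean of 14.7 TPM. It ranged from 10.4 TPM in the XO library to 19.3 TPM in ESC 1, and apart from the XO library each label overlapped the next in order.

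Map2k1 was the most abundant and the steadiest of the 7. It had a mean of 141 TPM and its highest library (the XO library, 156.7 TPM) exceeded its lowest (ESC 3, 130.8 TPM) by 1.20 times. Map2k1 lies on chromosome 9 (64185770 to 64253631) and Map2k2, the other MEK gene, on chromosome 10 (81105915 to 81133975). Map2k2 was lowest in E11.5 XY EGC, with 36.5, 37.4 and 37.2 TPM, below all other libraries. It spread most in E12.5 XY EGC, where EGC 1 had 70.9, EGC 2 had 63.1 and EGC 3 had 45.6 TPM. The remaining libraries held 44.9 to 59.5 TPM. Mapk3, the ERK1 gene on chromosome 7 (126759601 to 126765819), varied most across the labels. It had 36.5, 38.4 and 38.1 TPM in XX ESC and 37.9 and 43.2 TPM in E11.5 XX EGC. XY libraries held 88.3, 81.6 and 98.1 TPM in ESC, 82.5, 89.8 and 83.8 TPM in E12.5 EGC and 73.2, 63.2 and 68.5 TPM in E11.5 EGC. The XO library, at 69.9 TPM, fell inside the E11.5 XY range, and all XX libraries lay below all others. The highest label mean of Mapk3 was 2.37 times the lowest, against 1.17 times for Map2k1 and 1.49 to 1.65 times for the other 5 genes.

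**Figure D1:**
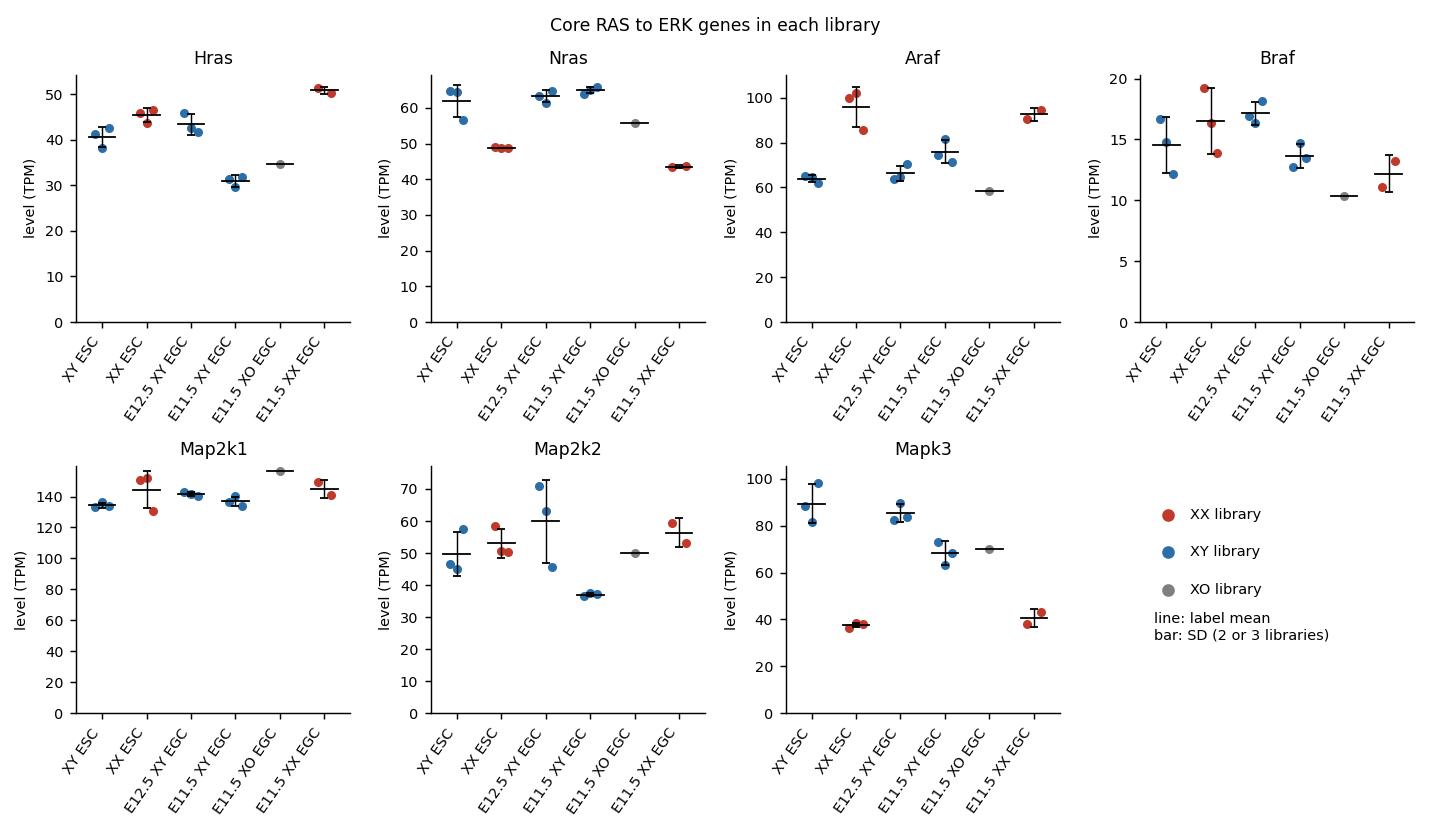
Level in TPM (y axes, from 0) of the 7 core genes in each library (points) under the 6 header labels, with the label mean (line) and SD (bar, labels of 2 or 3 libraries). Mapk3 and Nras are low and Araf is high in the XX libraries, and Hras and Map2k2 are lowest in E11.5 XY EGC.

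The windows from 250 bases before to 50 after the RefSeq start of Araf and Nras are shown because these genes separated XX from XY libraries in opposite directions without overlap. They are read 5′ to 3′ on the plus strand of GRCm38.p6, taken from RefSeq, with each CG dinucleotide in capitals, since the study concerns the loss of CG methylation in XX cells. The Araf window is chrX:20848293-20848592 and the Nras window chr3:103058035-103058334. The RefSeq start used for Araf lies inside the GENCODE gene given above, downstream of its first base, whereas that of Nras is the GENCODE start.
Araf: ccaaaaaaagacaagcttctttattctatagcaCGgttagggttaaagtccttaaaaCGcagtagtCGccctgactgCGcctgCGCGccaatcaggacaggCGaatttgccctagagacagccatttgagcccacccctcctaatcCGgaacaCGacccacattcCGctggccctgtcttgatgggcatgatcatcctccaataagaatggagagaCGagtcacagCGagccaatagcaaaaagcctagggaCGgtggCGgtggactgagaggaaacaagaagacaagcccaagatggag
Nras: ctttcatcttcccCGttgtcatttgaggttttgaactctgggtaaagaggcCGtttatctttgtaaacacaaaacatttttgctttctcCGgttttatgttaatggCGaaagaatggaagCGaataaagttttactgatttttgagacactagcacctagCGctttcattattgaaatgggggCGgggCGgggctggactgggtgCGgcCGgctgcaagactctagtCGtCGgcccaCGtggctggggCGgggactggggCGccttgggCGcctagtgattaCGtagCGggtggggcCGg
The Araf window holds 14 CG and the Nras window 19, where the median of all 32851 windows of this length is 7. Of all windows, 36.3% had at least as many CG as Araf and 28.1% at least as many as Nras. The windows of Hras, Braf, Map2k1 and Map2k2 held 28 to 34 CG. Mapk3 had no window in the table. The letters CCGGAAGT, a strong binding site of ETS transcription factors, many of which ERK regulates, were searched on both strands. They were found in none of the 6 windows and in 3.89% of all windows.

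XX and XY ESC were compared to ask what accompanies the XX karyotype in stem cells. XX and XY cells differ in the Y chromosome as well as in X number, which this comparison cannot tell apart. Mapk3 fell in XX ESC, from 89.3 ± 8.29 TPM (SD, n = 3) in XY to 37.7 ± 1.04 TPM (n = 3), and Nras fell from 62.0 ± 4.57 to 48.8 ± 0.101 TPM. Araf rose from 63.9 ± 1.54 to 95.7 ± 8.99 TPM. On the log2(TPM + 1) scale Mapk3 changed by -1.22 ± 0.08 (SE, adjusted p = 9.779e-08), a 2.33-fold lower level. Nras changed by -0.34 ± 0.06 (adjusted p = 0.000408) and Araf by 0.57 ± 0.07 (adjusted p = 4.098e-05), or 1.49-fold. Each p is from limma and adjusted over all 13879 genes tested, with a threshold of 0.05. Hras was 0.16 ± 0.06 higher (adjusted p = 0.05693), with every XX library above every XY library. Braf (0.17 ± 0.13, adjusted p = 0.288, 95% interval -0.10 to 0.44), Map2k1 (0.10 ± 0.06, adjusted p = 0.1841, -0.03 to 0.23) and Map2k2 (0.10 ± 0.14, adjusted p = 0.5918, -0.20 to 0.39) did not pass.

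Of the 7 genes 1 rose and 2 fell, where 27.3% of all genes tested passed as higher and 19.3% as lower. The higher share of the calls was 58.5%, and 45.5% with quantile normalization. The count of the core genes lay near this background. Of 12981 autosomal genes, 1.08% had a lower log2 change than Mapk3. Araf rose less than most of its chromosome: the median X-linked gene changed by 0.97, 86.7% of 588 X-linked genes passed as higher, and 79.8% of them changed by more than Araf. Hras passed without ESC 6 (adjusted p = 0.0446), without EGC 1 (0.04618) or with no filter on low TPM (0.04373), and Map2k1 passed without ESC 3 (0.01527).

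The same comparison in E11.5 EGC asks whether the XX karyotype goes with the same changes in lines of germ cell origin. Mapk3 fell from 68.3 ± 5.01 TPM (n = 3) in XY to 40.6 ± 3.76 TPM (n = 2) in XX, and Nras from 65.0 ± 0.908 to 43.6 ± 0.306 TPM. Hras rose from 30.9 ± 1.23 to 50.8 ± 0.807 TPM, Map2k2 from 37.03 ± 0.451 to 56.4 ± 4.40 TPM and Araf from 75.9 ± 5.11 to 92.5 ± 3.01 TPM. For all 5 genes the XX and XY libraries did not overlap. The log2 changes were -0.74 ± 0.09 for Mapk3 (adjusted p = 2.507e-05) and -0.57 ± 0.07 for Nras (adjusted p = 1.738e-05). They were 0.70 ± 0.07 for Hras (adjusted p = 5.555e-06), 0.59 ± 0.15 for Map2k2 (adjusted p = 0.005933) and 0.29 ± 0.08 for Araf (adjusted p = 0.01231). Braf (-0.15 ± 0.14, adjusted p = 0.3847) and Map2k1 (0.08 ± 0.07, adjusted p = 0.3282) did not pass. In all 3 rose and 2 fell of the 7, where 26.2% of all genes passed as higher and 23.4% as lower. Araf again lay under the X-linked median of 0.83: 78.7% of X-linked genes passed as higher, and 82.8% changed by more than Araf. Of autosomal genes, 6.26% had a lower log2 change than Mapk3. Mitochondrial transcripts made up 6.70% to 7.85% of TPM in these XY libraries, and 5.25% (EGC 7) and 6.85% (EGC 9) in the XX libraries. The fibroblast markers summed to 24.3 to 70.9 TPM in XY and 29.3 to 32.4 TPM in XX. The part of either here, or in the difference of XX effects below, was not tested.

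The values in EGC moved with the XY libraries used as reference. With E12.5 XY EGC as the reference, an alternative chosen after seeing the data, Hras was 0.23 ± 0.07 higher in XX (adjusted p = 0.01669) instead of 0.70. Map2k2 changed direction to -0.06 (adjusted p = 0.7566), and Braf was lower by -0.46 ± 0.14 (adjusted p = 0.01452). Mapk3 (-1.06), Nras (-0.53) and Araf (0.48) kept their direction and their calls. Without EGC 9 Araf did not pass (adjusted p = 0.09041), nor did Map2k2 without EGC 7 (adjusted p = 0.0589), and either leaves 1 XX library that is assumed to vary like the other labels.

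The difference between the XX effects of both cell types was tested directly. The rise of Hras was 0.54 ± 0.09 larger in EGC than in ESC (adjusted p = 0.004286), and the fall of Mapk3 was smaller by 0.48 ± 0.12 (adjusted p = 0.01911). These were 2 of 7 genes, both higher, where 6.08% of all genes passed as higher and 9.51% as lower. The higher share of those calls was 39%, and 49.7% with quantile normalization. For Map2k2 (0.50 ± 0.20, adjusted p = 0.1131), Araf (-0.29 ± 0.11, adjusted p = 0.09715), Nras (-0.23 ± 0.09, adjusted p = 0.09044), Braf (-0.32 ± 0.19, adjusted p = 0.2489) and Map2k1 (-0.02 ± 0.09, adjusted p = 0.9013) the difference did not pass. Against E12.5 XY EGC neither Hras (0.07, adjusted p = 0.6451) nor Mapk3 (0.16, adjusted p = 0.3691) differed past the threshold, and Braf did (-0.63, adjusted p = 0.03754). Mapk3 also did not pass without EGC 9 (adjusted p = 0.08679).

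**Figure D2:**
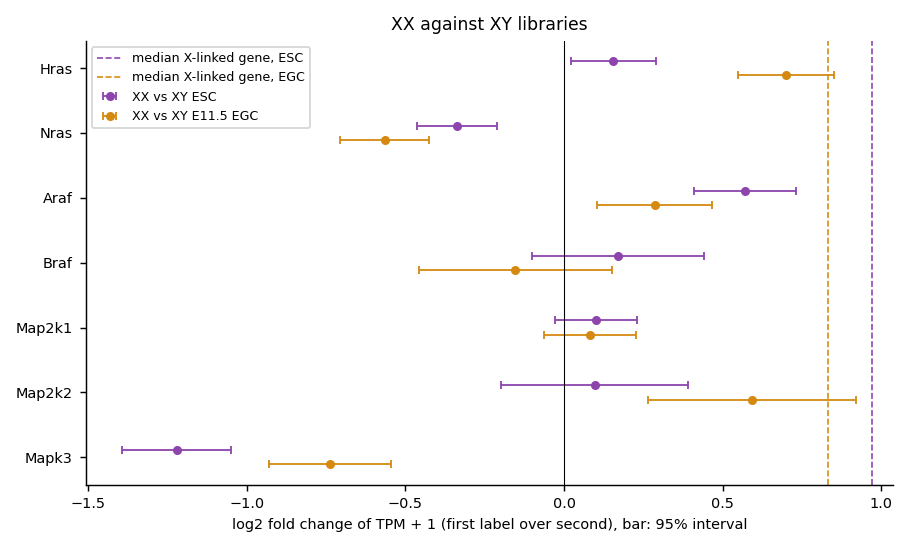
Change between XX and XY libraries on the log2(TPM + 1) scale (x axis) of the 7 core genes (rows) in ESC and in E11.5 EGC, with unadjusted 95% intervals, and the median of X-linked genes (dashed lines at 0.97 in ESC and 0.83 in EGC). Mapk3 and Nras lie left of 0 in both cell types, and Araf lies right of 0 but left of the X-linked medians.

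The ratios of members of 1 family, and of the ends of the kinase chain, are described without a test. Hras had 0.90 to 1.19 times the TPM of Nras in the 5 XX libraries, 0.45 to 0.75 times in the 9 XY libraries and 0.62 times in the XO library. The ratio was lowest in E11.5 XY EGC (0.476 ± 0.0192) and highest in E11.5 XX EGC (1.17 ± 0.0267). Araf exceeded Braf in every library, by 5.18 to 8.13 times in XX and 3.76 to 5.86 times in XY libraries, so that here the karyotypes overlapped. Within ESC the ratio of Araf to Braf was 5.85 ± 0.577 in XX and 4.45 ± 0.615 in XY. Within E11.5 EGC it was 7.63 ± 0.701 in XX, 5.56 ± 0.278 in XY and 5.63 in the XO library. Map2k1 exceeded Map2k2 by 2.02 to 3.74 times, most in E11.5 XY EGC (3.70 ± 0.0773), and by the same amount in XX ESC (2.73 ± 0.240) as in XY ESC (2.74 ± 0.370) within their SD. The ratio of Araf, at the entry of the kinase chain, to Mapk3, at its end, was 2.19 to 2.74 in XX and 0.63 to 1.29 in XY libraries, and 0.836 in the XO library.

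**Figure D3:**
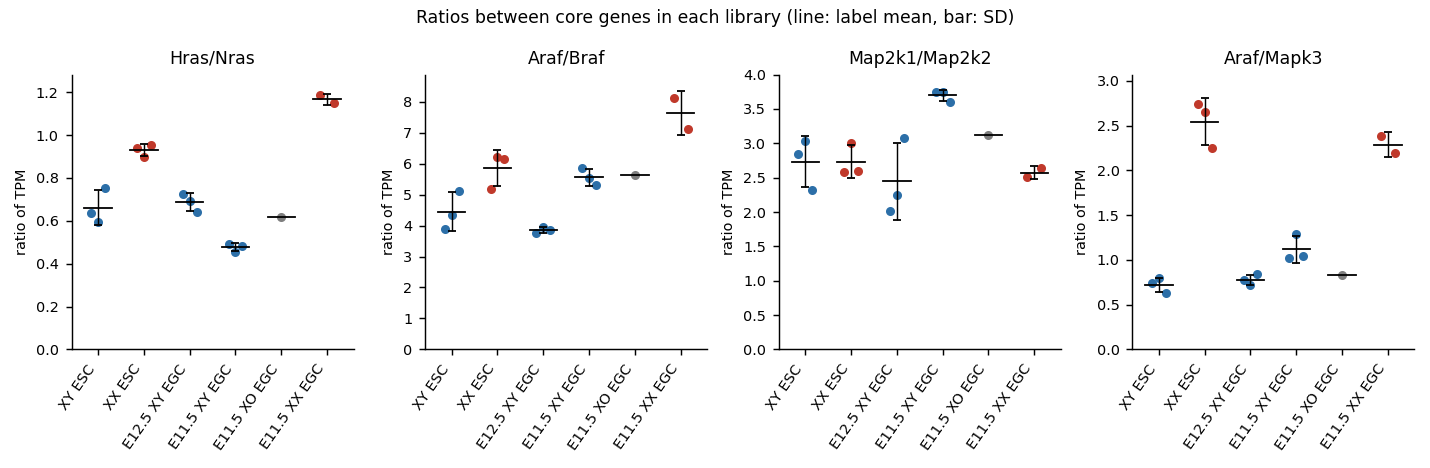
Ratio of TPM (y axes, from 0) between pairs of core genes in each library (points: XX red, XY blue, XO grey), with the label mean (line) and SD (bar). The ratios Hras to Nras and Araf to Mapk3 separate the 5 XX from the 9 XY libraries without overlap, and the ratio Araf to Braf does not.

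E12.5 and E11.5 XY EGC were compared to ask whether the stage of the germ cells of origin goes with a difference. Hras, Map2k2 and Mapk3 were higher in the E12.5 lines. Hras had 43.4 ± 2.26 against 30.9 ± 1.23 TPM (0.47 ± 0.06, adjusted p = 0.0001874). Map2k2 had 59.9 ± 13.0 against 37.03 ± 0.451 TPM (0.66 ± 0.14, adjusted p = 0.00267). Mapk3 had 85.4 ± 3.89 against 68.3 ± 5.01 TPM (0.32 ± 0.08, adjusted p = 0.007387). For each of the 3 genes every E12.5 library exceeded every E11.5 library. Braf (0.31 ± 0.13, adjusted p = 0.06739), Araf (-0.19 ± 0.07, adjusted p = 0.05916), Map2k1 (0.05 ± 0.06, adjusted p = 0.5433) and Nras (-0.04 ± 0.06, adjusted p = 0.6251) did not pass. The 3 of 7 that rose stand beside 26.3% of all genes higher and 11.4% lower. The higher share of the calls, 69.8%, was 50.6% with median-ratio scaling, under which Mapk3 did not pass (0.22, adjusted p = 0.0633) and Araf was lower past the threshold (-0.29, adjusted p = 0.007397). Without ESC 3, which enters only through the shared spread and the adjustment, 5 genes passed, with Araf (adjusted p = 0.02542) and Braf (adjusted p = 0.04388) added. Mitochondrial transcripts made up 6.70% to 7.85% of TPM in E11.5 XY EGC, 4.99% to 5.61% in E12.5 XY EGC and 4.94% to 5.49% in XY ESC. The 11 fibroblast markers summed to 24.3 to 70.9 TPM in E11.5 and 19.004 to 27.5 TPM in E12.5 XY EGC. Of the 8 tested, Postn and Col3a1 were lower and Pdgfrb higher in E12.5. The part of either in these differences was not tested.

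The origin of the lines was compared within XY cells. This comparison shares the E11.5 XY EGC libraries with those above and the XY ESC libraries with the first. Against XY ESC, E11.5 XY EGC had lower Hras (30.9 against 40.7 TPM, -0.38 ± 0.06, adjusted p = 0.001149) and lower Mapk3 (68.3 against 89.3 TPM, -0.38 ± 0.08, adjusted p = 0.004674). Map2k2 was lower (37.03 against 49.7 TPM, -0.41 ± 0.14, adjusted p = 0.04346) and Araf higher (75.9 against 63.9 TPM, 0.24 ± 0.07, adjusted p = 0.03145). Thus 1 rose and 3 fell of 7, where 12.2% of all genes passed as higher and 13.4% as lower. The Hras and Mapk3 calls held with each library left out. Araf did not pass without EGC 4 (adjusted p = 0.06036), EGC 5 (0.1274), ESC 4 (0.06398), ESC 5 (0.05766) or ESC 6 (0.0954). Map2k2 missed the threshold in 11 of 21 alternatives, with adjusted p of up to 0.1702 without ESC 6. The fibroblast marker sum was 24.3 to 70.9 TPM in E11.5 XY EGC against 14.1 to 17.1 TPM in XY ESC. Its part in these differences, and that of the mitochondrial share above, was not tested.

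E12.5 XY EGC and XY ESC did not differ past the threshold in any of the 7 genes, where 3.19% of all genes passed as higher and 0.166% as lower. In limma none of the 7 had an unadjusted p under 0.05 there. The log2 differences ran from -0.06 for Mapk3 (95% interval -0.23 to 0.11) to 0.25 for Map2k2 (-0.05 to 0.54), which passed without EGC 3 (0.43, adjusted p = 0.04015). The split of the calls was 95.1% higher, and 68.8% with median-ratio scaling. XX EGC and XX ESC likewise gave no call among the 7, where 4.09% of all genes passed as higher and 8.44% as lower. In limma 3 of the 7 had an unadjusted p under 0.05 there. The difference nearest to the threshold was that of Braf (12.2 ± 1.52 against 16.5 ± 2.68 TPM, -0.40 ± 0.14, adjusted p = 0.07621), which passed without ESC 3 (adjusted p = 0.026). Mapk3 differed by 0.10 there (95% interval -0.09 to 0.29) and Araf by -0.04 (-0.22 to 0.14). The higher share of the calls was 32.6%, and 48% with quantile normalization. The fibroblast markers summed to 29.3 to 32.4 TPM in XX EGC and 13.0 to 15.3 TPM in XX ESC. They summed to 19.004 to 27.5 TPM in E12.5 XY EGC and 14.1 to 17.1 TPM in XY ESC. Of the 8 tested, Col1a1, Col1a2 and Bgn passed as higher in XX EGC, and none passed in E12.5 XY EGC. Mitochondrial transcripts made up 5.25% and 6.85% of TPM in XX EGC and 4.92% to 5.69% in XX ESC. The part of either in these comparisons was not tested.

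EGC and ESC were last compared as wholes, 9 libraries against 6, over 12909 genes. None of the 7 passed in limma, and none had an unadjusted p under 0.05, where 0.0232% of all genes passed as higher and 0.0232% as lower. The largest differences were 0.18 ± 0.25 for Mapk3 (68.0 ± 17.7 against 63.5 ± 28.8 TPM, adjusted p = 0.831) and -0.14 ± 0.12 for Braf (adjusted p = 0.733). The SD of Mapk3 within either cell type exceeded the difference between them, and its XX and XY libraries made up its low and high values in both. With karyotype as a covariate Mapk3 (-0.10), Nras (-0.03) and Araf (0.07) changed direction, and none passed.

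**Figure D4:**
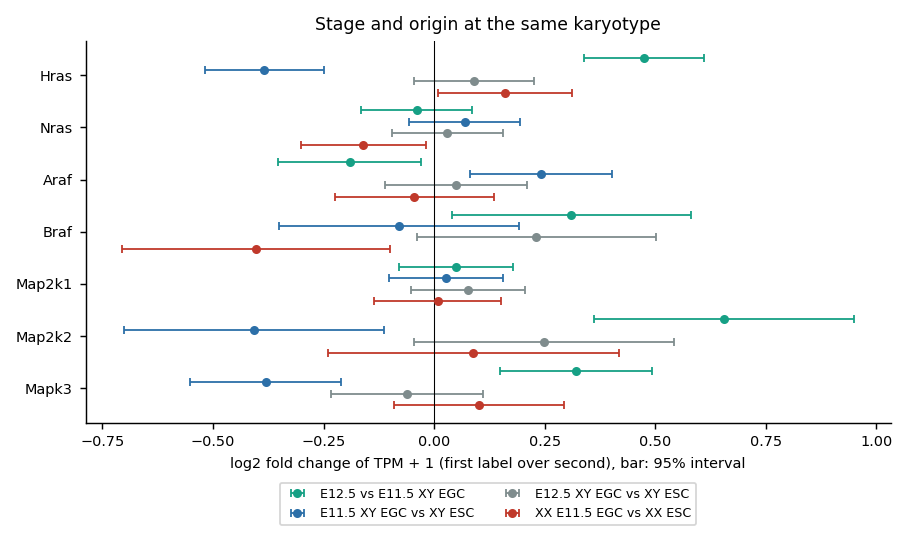
Change on the log2(TPM + 1) scale (x axis) of the 7 core genes (rows) between stages of XY EGC and between EGC and ESC of the same karyotype, with unadjusted 95% intervals. Hras, Map2k2 and Mapk3 lie right of 0 in E12.5 against E11.5 XY EGC and left of 0 in E11.5 XY EGC against XY ESC, which share the E11.5 XY libraries.

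Around the core, 93 genes in 8 lists were examined, of which 88 were tested in the comparisons by label. In XX against XY ESC 28 rose and 23 fell, and in E11.5 EGC 23 rose and 22 fell. Over all genes 27.3% rose and 19.3% fell in ESC, and 26.2% rose and 23.4% fell in EGC. The counts of the single lists below stand beside these same shares, and each list holds only 8 to 17 tested genes. All 7 tested X-linked genes of these lists rose in XX in both cell types, where 86.7% of all X-linked genes did so in ESC and 78.7% in EGC. They are the RAS gene Eras, the palmitoyltransferase gene Zdhhc9 that modifies RAS, the scaffold gene Cnksr2, the ERK-activated kinase genes Rps6ka3 and Rps6ka6, the ETS factor gene Elk1 and the phosphatase gene Dusp9. Eras had 85.1 ± 13.1 TPM in XX ESC and 47.0 ± 1.81 TPM in XY ESC, 62.6 ± 1.23 TPM in XX EGC and 23.5 ± 0.540 TPM in E11.5 XY EGC. It had 45.3 ± 5.39 TPM in E12.5 XY EGC and 41.4 TPM in the XO library. Its log2 change in XX EGC was 1.38 against E11.5 and 0.46 against E12.5 XY EGC. Elk1, which ERK phosphorylates, had 24.6 ± 2.71 against 13.8 ± 0.613 TPM in ESC and 24.5 ± 0.555 against 15.7 ± 1.04 TPM in EGC. Its log2 changes were 0.79 ± 0.09 and 0.61 ± 0.10.

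Among the other RAS-like GTPases, Rras fell in XX ESC by 0.77 and in XX EGC by 0.67. Of 9 tested, 3 rose and 1 fell in ESC and 4 rose and 1 fell in EGC, with medians of 0.23 and 0.25 beside 0.05 and 0.02 over all genes. GTPase-activating proteins return RAS to its inactive state. Of 9, 5 rose and none fell in XX ESC (median 0.38), and 3 rose and none fell in XX EGC (median 0.04, beside 0.02 over all genes), where 26.2% of all genes rose. Rasa4 had 18.5 ± 1.52 against 12.1 ± 0.873 TPM in ESC (0.57 ± 0.09, adjusted p = 0.0001344) and 18.8 ± 0.190 against 9.83 ± 1.00 TPM in EGC (0.88 ± 0.10, adjusted p = 1.169e-05). Rasa3 rose by 0.46 and 0.48. Rasa1 rose by 0.49 in ESC and by 0.54 in EGC, where the call ended with E12.5 XY EGC as the reference (0.06, adjusted p = 0.7392).

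Of 12 RAS activators and adaptors tested, 3 rose and 5 fell in XX ESC (median 0.03) and 1 rose and 5 fell in XX EGC (median -0.18). Shc1, an adaptor between receptors and RAS, had 57.8 ± 2.31 against 95.8 ± 7.17 TPM in ESC (-0.72 ± 0.07, adjusted p = 1.722e-06). Rasgrp1, an exchange factor that loads RAS with GTP, fell by 0.61 in ESC and by 1.22 in EGC, from levels of 1.51 and 2.96 TPM in XY cells. In XX EGC the exchange factor gene Sos1 (-0.45) and the FGF receptor adaptor gene Frs2 (-0.48) also fell. Of the 9 genes for lipid processing of RAS, 2 rose and 2 fell in ESC and 4 rose and 3 fell in EGC. Fntb, a farnesyltransferase subunit, rose by 0.56 and 0.67.

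Scaffolds and modulators of RAF, MEK and ERK were called 5 up and 5 down of 17 in ESC (median -0.06), and in EGC 4 rose and 1 fell (median 0.09). Pebp1, an inhibitor of RAF, fell from 439.8 ± 28.8 to 315.8 ± 4.59 TPM in ESC (-0.47 ± 0.06, adjusted p = 5.438e-05), and Pea15a, which holds ERK in the cytoplasm, fell by 0.84. Of 13 genes listed as ERK substrates 5 rose and 1 fell in ESC and 5 rose and 3 fell in EGC. The X-linked Elk1, Rps6ka3 and Rps6ka6 were among those that rose. Of 12 kinases of the other MAP kinase modules 4 rose and 6 fell in ESC and 1 rose and 5 fell in EGC. The p38 family genes Mapk11, Mapk12 and Mapk13 fell in XX ESC by 1.24, 1.35 and 1.14, and in E11.5 EGC Mapk13 fell by 1.02 and Mapk12 by 0.44. The change of Mapk11 in EGC was -0.26 (adjusted p = 0.1802). The p38 gene Mapk14 rose by 0.34 in ESC and by 0.43 in EGC, where the call ended against E12.5 XY EGC (0.14, adjusted p = 0.3193).

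**Figure D5:**
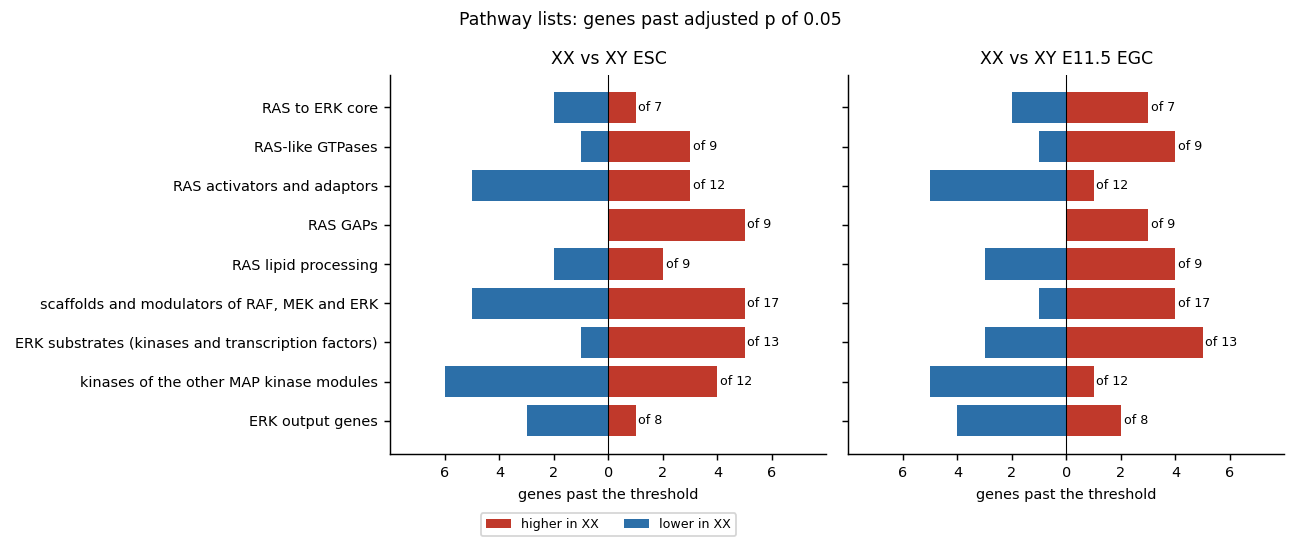
Number of genes past an adjusted p of 0.05 (x axis) that were higher (red, right) or lower (blue, left) in XX than in XY libraries for the core and each pathway list, in ESC (left panel) and E11.5 EGC (right panel), with the number tested. Of the 9 GTPase-activating genes (RAS GAPs) 5 rose in ESC and 3 in EGC, where 27.3% and 26.2% of all genes rose.

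Genes listed as ERK output were set beside the core. Dusp9 is among them, although it is X-linked and encodes a phosphatase that switches ERK off. Of 8, 1 rose and 3 fell in XX ESC and 2 rose and 4 fell in XX EGC. Dusp9 rose (1.18 and 2.03) and Egr1 (-1.93 and -5.18), Fos (-0.71 and -4.66) and Dusp6 (-0.51 and -1.46) fell in both. In EGC Etv4 also rose and Spry2 also fell. The other 4 genes in ESC and 2 in EGC did not pass. Against E12.5 XY EGC the change in EGC was 0.81 for Dusp9, -3.80 for Egr1 and -2.25 for Fos, each past the threshold. In the single XO library Mapk3 (69.9 TPM) and Dusp9 (33.6 TPM) lay in the E11.5 XY range. Fos (27.9 TPM) lay in the XX EGC range (24.3 ± 7.06 TPM, 19.3 to 29.3 TPM). Egr1 (5.27 TPM) lay above XX EGC (2.94 ± 0.0567 TPM) and below E11.5 XY EGC (122.2 to 160.7 TPM). Dusp6 (21.5 TPM) lay between XX EGC (14.5 to 15.6 TPM) and E11.5 XY EGC (39.6 to 48.1 TPM).

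Between E12.5 and E11.5 XY EGC 29 of the 88 genes were higher and 12 lower, where 26.3% of all genes were higher and 11.4% lower. The genes with the widest changes among those named were Fos (-2.40), Egr1 (-1.37) and Dusp9 (1.21), with Eras (0.91), the MEK scaffold gene Ksr1 (0.73) and the scaffold gene Iqgap1 (0.76) among the higher and Rap1a (-0.50) among the lower. Between E11.5 XY EGC and XY ESC 15 were higher and 18 lower, beside 12.2% and 13.4% of all genes. Fos (3.05), Egr1 (2.61), Rasgrp1 (0.66) and Srf (0.58) were among the higher, and Dusp9 (-1.09), Eras (-0.97) and Pea15a (-0.45) among the lower. Between E12.5 XY EGC and XY ESC 7 were higher and none lower, beside 3.19% and 0.166% of all genes. Among the higher were Egr1 (1.24), Fos (0.65) and Mknk2, a kinase that ERK activates (0.39). Between XX EGC and XX ESC 3 were higher and 9 lower, beside 4.09% and 8.44% of all genes. Among the lower were Fos (-0.89), Egr1 (-0.63), the ERK-activated kinase gene Rps6ka1 (-0.36) and Eras (-0.43). In EGC against ESC as wholes none of 87 passed.

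Across the 15 libraries, which share label structure and karyotype, the log2 levels of Araf and Mapk3 ran opposite (Pearson r = -0.911). Nras ran with Mapk3 (r = 0.843) and against Araf (r = -0.719), and Hras ran with Map2k2 (r = 0.801). Among 8865 genes with a mean of at least 5 TPM, those most like Mapk3 were Ppt2 (r = 0.977) and Fsd1 (r = 0.976), both on chromosome 17. Those most like Nras were Btbd3 (r = 0.982) and Skil (r = 0.980). Araf was followed most closely by Taf9b, also X-linked (r = 0.971), and by Ephx1 (r = 0.969), Hras by the X-linked Tfe3 (r = 0.939) and by Ucp2 (r = 0.934). Braf was closest to Aff4 (r = 0.965) and Htt (r = 0.941), and Map2k2 to Dcakd and Ipo13 (r = 0.958 each). Map2k1, which varied least, had the weakest matches, Magi1 (r = 0.859) and Strada (r = 0.823).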

How the data were processed

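Polyadenylated RNA of 9 EGC and 6 ESC libraries was measured. The deposited values are TPM, and every library sums to 1000000 in the deposited table. Per the submitters' processing notes, the authors used edgeR 3.8.6, HTSeq 0.6.0, STAR 2.3.0, Picard 1.100 and SAMtools 0.1.18.0 with the GRCm38 (mm10) build. Their roles and the step to TPM are not given in the sources used here, and TPM keeps no depth. EGC or ESC came from the labels, and karyotype and stage from the file header, where a blank cell was read as the label at its left. Positions came from GENCODE release M21 for 89.2% of genes.

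From there, log2(TPM + 1) was fitted with limma 3.58.1 in R 4.3.3, with a mean-variance trend, 2-sided tests and Benjamini-Hochberg adjustment over all genes tested. EGC against ESC was fitted on genes that reached 1 TPM in 6 or more libraries. The comparisons by label used 1 mean per label (9 residual degrees of freedom) and a minimum of 2 such libraries. All 7 core genes passed both filters. On this scale the change of a gene with low TPM is understated. The fits were tested on simulated data in which the labels did not differ apart from the changes put in. For EGC against ESC the real libraries under 1 label were correlated (consensus of 0.75), and the simulated ones were not. Ratios and figures were made with Python 3.11.15. The core genes, the lists and the tests were chosen with earlier results of these data known. From each list up to 3 genes past the threshold with the smallest p were selected per comparison, or the 1 with the highest mean where none passed. For likeness the 2 genes with the highest r were selected. The text names only some of the genes selected from the lists, picked after their values were seen. Other genes named were chosen after their values were seen. The library kit is not stated to mark strand. Genes on the opposite strand overlap Araf (Syn1, 2.33 to 14.5 TPM), Braf (Ndufb2, 123.9 to 190.4 TPM) and Map2k1 (Uchl4, at most 0.0967 TPM), so reads there may not be separated. Alternatives were the pseudocount (0.1), no filter, median-ratio or quantile scaling, no trend, the labels compared alone, each library left out, karyotype as a covariate and correlated libraries.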

Additional observations from a re-analysis of the deposited data

Results flagged for a closer look

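No library stood apart for any of the 7 core genes in 14 groups examined (each gene within the EGC and within the ESC libraries). These groups pool karyotypes and stages, so a library that departs only from its own label can be missed. Values below are the XX minus XY change in E11.5 EGC less the XX minus XY change in ESC, on the log2 scale. The genes selected by rule whose XX effect differed between E11.5 EGC and ESC in the direct limma test of that difference follow. Of the core genes these were Hras (0.54) and Mapk3 (0.48).

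Of the genes around the core, the difference was -3.95 for Fos, -3.25 for Egr1 and 0.85 for Dusp9 among those listed as ERK output. It was -0.66 for Srf among those listed as ERK substrates. It was 0.98 for Mapk11, 0.90 for Mapk12 and -0.60 for Map2k6 in the other MAP kinase modules. It was 1.08 for Rasgrp2, -0.62 for Rasgrp1 and 0.40 for Shc1 among RAS activators and adaptors. For Eras it was 0.54, for Pea15a 0.77, for Lypla2 0.59 and for Zdhhc9 -0.59. With E12.5 XY EGC as the XY reference Fos (-1.54), Egr1 (-1.87) and Zdhhc9 (-0.63) kept their direction and passed, and the other 13 of these 16 genes did not pass.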

How the results depend on the processing

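Of 1197 values of the core genes under the alternatives, 1133 kept their direction and side of the threshold, 22 lost the call, 18 gained one and 24 changed direction. Of 2945 values of the pathway genes selected by rule 2726, 207, 0 and 12 did so. No paired analysis was possible because replicate numbers follow accession order and pair no libraries. The cause of the changes below was not tested. TPM keeps no depth, so what depth limits cannot be given.

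Direction changed as follows on the log2 scale. With median-ratio scaling Map2k1 was -0.0487 in E12.5 against E11.5 XY EGC and 0.0172 in the difference of XX effects, Araf was 0.0011 in XX EGC against XX ESC, and Nras (-0.0575), Araf (-0.0377), Map2k1 (-0.0121) and Rap1b (-0.0818) turned in E12.5 XY EGC against XY ESC. With quantile normalization Nras (-0.0382), Araf (-0.015) and Rap1b (-0.0193) turned there, and Map2k1 was -0.01 in XX against XY EGC and -0.0244 in XX EGC against XX ESC. With karyotype as a covariate EGC against ESC gave Nras -0.029, Araf 0.0741 and Mapk3 -0.10. With the E12.5 XY reference, chosen after seeing the data, XX against XY EGC gave Map2k2 -0.0629, Golga7 0.0117 and Hsp90ab1 -0.0242, and the difference of XX effects gave Map2k2 -0.16, Eras -0.37, Rasa1 -0.42 and Dusp9 -0.36, with 1 core gene called.

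Genes called over the whole table were 2 for EGC against ESC with no filter, 21 with karyotype as a covariate and 0 with correlated libraries, against 6. For E12.5 XY EGC against XY ESC they were 231 with no filter, 205 with median-ratio scaling, 114 with quantile normalization and 130 with the labels compared alone, against 443 higher and 23 lower. For XX EGC against XX ESC they were 396 with the labels compared alone, against 1740.

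With 1 library left out, core genes called were 0 to 0 for EGC against ESC, 3 to 4 for XX against XY ESC, 4 to 5 in EGC, 3 to 5 between stages, 2 to 4 for E11.5 XY EGC against XY ESC, 0 to 1 for E12.5 XY EGC against XY ESC, 0 to 1 for XX EGC against XX ESC and 1 to 3 for the difference of XX effects. In the same order all genes called were 2 to 21, 5429 to 6573, 4967 to 7222, 3862 to 5668, 2224 to 3930, 29 to 1013, 353 to 2324 and 698 to 2967. Direction turned within these ranges: Braf -0.19 to 0.0188 (E11.5 XY EGC against XY ESC), Nras -0.0316 to 0.0628, Mapk3 -0.12 to 0.0076 and Rap1b -0.0782 to 0.0971 (E12.5 XY EGC against XY ESC), Araf -0.12 to 0.0019 and Map2k1 -0.062 to 0.0477 (XX EGC against XX ESC), Map2k1 -0.0894 to 0.0203 and Rasa1 -0.0416 to 0.24 (difference of XX effects). Map2k2 gained a call in the difference of XX effects without EGC 3 (adjusted p = 0.03706) or with the labels alone (0.03987), and Araf without ESC 3 (0.02119). Between stages Araf gained a call with quantile normalization (adjusted p = 0.02672) or without EGC 3 (0.04173), and Braf without ESC 6 (0.04495) or with the labels alone (0.02742).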
